A study of Mus musculus with 2 samples.

Results

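The genes of the 5 NF-κB subunits, Nfkb1, Nfkb2, Rel, Rela and Relb, were examined for binding of the transcription factors ELF3 and NFKB2 in cytokine-treated mouse kidney tubule cells. A region was counted for a gene when it overlapped a fixed window, the gene with about 20 kb on each side. The windows lay on chromosome 3 from 135270 to 135418 kb (Nfkb1), chromosome 19 from 46272 to 46321 kb (Nfkb2), chromosome 11 from 23666 to 23741 kb (Rel), chromosome 19 from 5667 to 5719 kb (Rela) and chromosome 7 from 19320 to 19384 kb (Relb), 388 kb in all. For ELF3, 24 of 68319 regions fell in them, and for NFKB2 13 of 14217. Binding was measured by CUT&RUN, in which a nuclease guided by an antibody cuts out the DNA around a bound protein, in primary tubular epithelial cells from the kidneys of wild-type mice. Of the 2 libraries, 1 was made with an ELF3 antibody and 1 with an NFKB2 antibody. Both came from kidney cells treated with TNFα and IFNγ and carry the same batch label, and no untreated library was analysed here. The sources used here do not give the cytokine doses, the treatment time or the age of the mice, and lists of bound regions offer no check of the labelled cell type.

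NF-κB proteins bind DNA as pairs of subunits at κB sites. Rela, Relb and Rel carry activation domains, whereas the products of Nfkb1 and Nfkb2 are made as precursors, p105 and p100, that are processed to p50 and p52. TNFα acts mainly through the canonical pathway, which frees pairs of Rela and p50. The non-canonical pathway turns p100, the NFKB2 precursor, into p52, which pairs with Relb, and NF-κB itself switches on several subunit genes. ELF3 is a factor of the ETS family found in epithelia and can be induced by NF-κB.

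Each antibody had a single library, so replicate error could not be measured, differences between the factors have no replicate check, and no p-value was computed. Signal is given as fragments at the summit, recovered from the deposited fold and −log10 p. The 95% intervals for fragments (exact Poisson), for shares (Clopper-Pearson) and for ratios (exact binomial) cover counting error only. The NFKB2 library was 1.04 times as deep, with 10.6 fragments per kb (taken over the genome size the caller used) against 10.1 for ELF3, and NFKB2 over ELF3 ratios were divided by this factor. How well each antibody captured its protein was not measured. Equal signal, a ratio of 1, therefore means equal fragments after this division and not equal binding. Positions are 1-based and as deposited, on GRCm39 by their sequence names, whereas mm10 is the build named in the submitters' processing notes. Gene ends are those of the window rule, given in whole kb, so a distance of about 1 kb means only that the summit lay close to the gene end. The gene lengths of the rule and of a RefSeq gene table differed by at most 1.31 kb for 4 genes. For Nfkb2 the table gives 11407 bp beside 9 kb in the rule, but 7664 bp from the most upstream start of its RefSeq promoter entries to its end, so positions near its ends are less certain. Exons, introns and untranslated regions were not assigned.

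All 5 windows held regions of both factors, with a shared region at or near the 5′ end of each gene. The share of all genes with such a region was not computed, so this count is a description only. At Nfkb1 the NFKB2 region near the 5′ end was weak, with 9 fragments and a −log10 q of 2.09. It is lost when a −log10 q of 5 or more is required. Nfkb1 had 9 ELF3 and 4 NFKB2 regions, Nfkb2 5 and 3, Relb 6 and 2, Rela 3 and 3, and Rel 1 of each. Of the 24 ELF3 regions 12 overlapped an NFKB2 region (50%, 95% interval 29.1 to 70.9), while 19.7% of all ELF3 regions did. Among ELF3 regions of 20 or more fragments the count was 8 of 10, against 31.2% over the whole list. Among the weaker ELF3 regions it was 4 of 14, against 4.91%. Of the 13 NFKB2 regions 12 overlapped an ELF3 region, against 96.8% of the whole list. Windows of other genes were not compared, so these shares are not shown to be particular to the subunit genes. The windows held 61.9 ELF3 and 33.5 NFKB2 regions per Mb, beside 26.6 and 5.55 per Mb over the stretches of the autosomes and X that hold regions, which include gene-poor DNA.

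**Figure D1:**
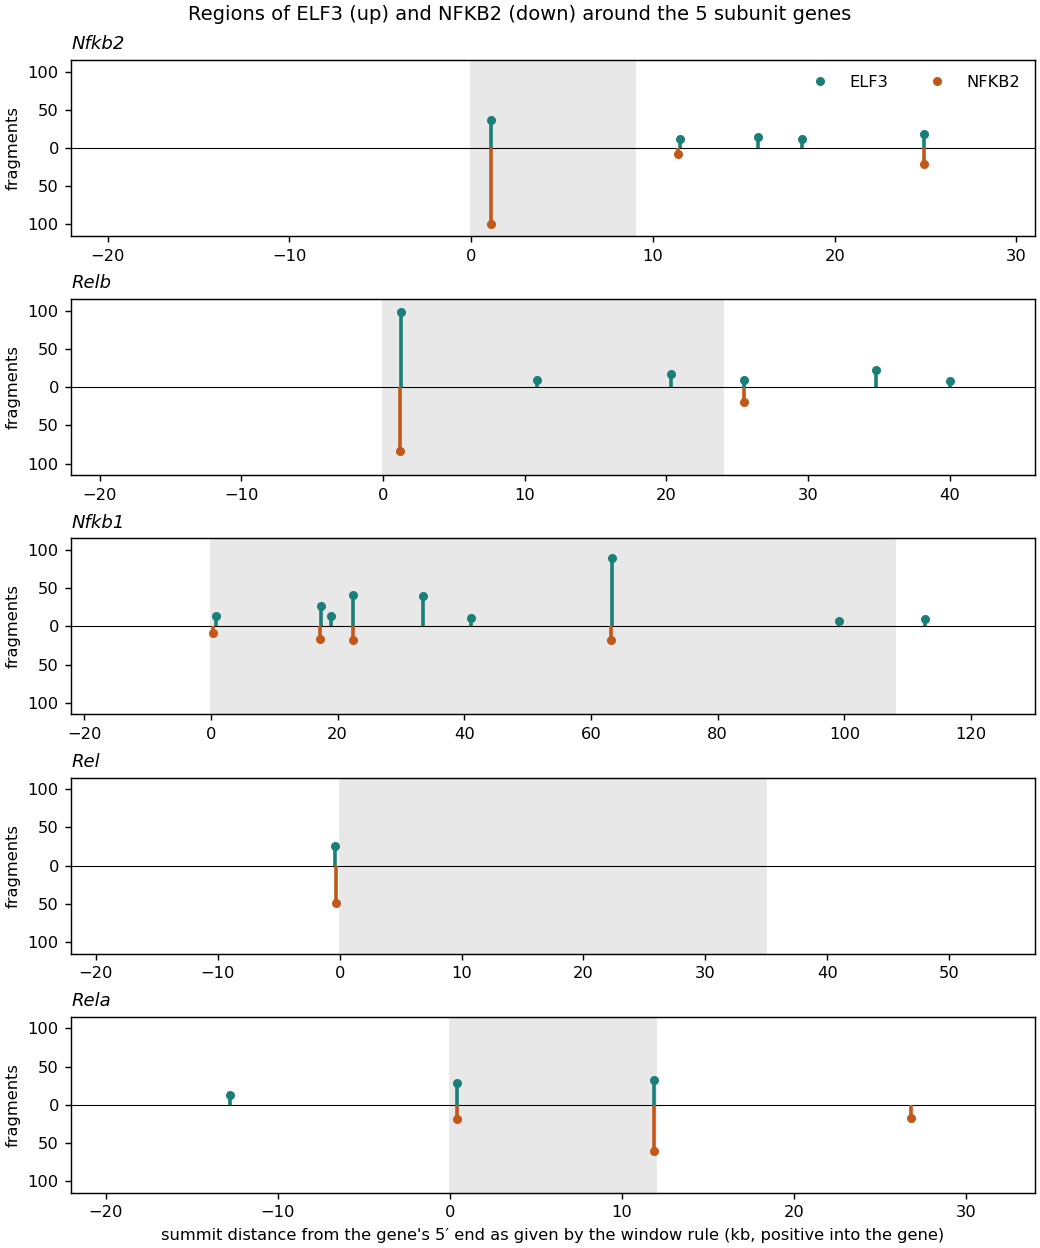
Summit positions of all 24 ELF3 regions (upward, green) and 13 NFKB2 regions (downward, orange) in the windows of the 5 genes; the x axis is the distance in kb from the 5′ end of the gene, the y axis is fragments at the summit, and grey marks the gene. NFKB2 had its highest summits at the 5′ ends of Nfkb2 (99) and Relb (83) and at the 3′ end of Rela (60), while no NFKB2 summit of Nfkb1 was above 18.

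Nfkb2, which encodes p100 and its product p52, carried the highest NFKB2 signal of the 5 windows at its own 5′ end. The NFKB2 region at chr19:46292526-46294509 held 99 fragments at its summit (80.5 to 121). The ELF3 region at chr19:46292526-46294222 held 37 (26.1 to 51.0). NFKB2 was thus the higher of the pair, with a ratio of 2.56 (1.74 to 3.85). Only 29 of the 13769 shared pairs of the whole lists had a ratio this high or higher (0.211%), this pair included. The 99 fragments were matched or passed by 92 of the 14217 NFKB2 regions (0.647%), whereas the 37 ELF3 fragments were matched or passed by 24.4% of the ELF3 list. Both regions began at the same base, their summits lay 3 bp apart, and at 1984 bp the NFKB2 region was wider than all but 1.89% of its list. The local background of both was at the lowest level of its library.

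The sequence before the Nfkb2 start is shown because it holds matches to the κB consensus and belongs to the gene with the highest NFKB2 signal. RefSeq lists 3 promoter entries for Nfkb2, 1 each for Rel and Rela, and the table used here gives none for Nfkb1 and Relb. The table is on GRCm38.p6, another build than the deposited regions, so the sequences were matched by gene symbol and not by position, and whether they lie inside the regions was not tested. The 250 bases before the most upstream of the 3 Nfkb2 starts (plus strand, GRCm38.p6 chr19:46304487-46304736) are given 5′ to 3′, with κB matches in capitals.
Nfkb2 start 1: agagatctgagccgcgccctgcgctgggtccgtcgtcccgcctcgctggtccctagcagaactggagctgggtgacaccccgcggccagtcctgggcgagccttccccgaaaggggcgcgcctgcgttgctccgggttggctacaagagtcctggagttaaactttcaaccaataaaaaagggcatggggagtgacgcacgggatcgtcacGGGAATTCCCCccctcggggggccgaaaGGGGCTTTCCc
The first capital stretch begins 39 bases before the start and holds 2 overlapping matches, GGGAATTCCC (read on both strands) and GGAATTCCCC (minus strand), and the second, GGGGCTTTCC, begins 11 bases before it. The entries for the other Nfkb2 starts share a further match, shown with 10 bases on each side.
Nfkb2 start 3: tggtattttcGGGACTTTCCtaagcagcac
It begins 225 bases before the third start. The entry for the second start also holds GGAATGTCCC on the minus strand, 236 bases before that start. A κB match on either strand was found in 4.51% of the 32851 promoter entries of 300 bases, and a match is no measured site. The ETS string CCGGAAG, present in 8.86% of the entries, was in none of the 5 entries of these genes. The shorter core GGAA was in all 5, as in 96.0% of all entries.

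The other regions of the Nfkb2 window lay past the 3′ end that the rule gives. The NFKB2 region at chr19:46316571-46317507 held 21 fragments, and the ELF3 region at chr19:46315566-46317241 held 18, a ratio of 1.12 (0.567 to 2.22) that could not be told from equal signal. Their summits lay 15.9 kb past the 3′ end, towards the neighbouring genes Fbxl15 and Cuedc2. In the gene table, Psd and the long non-coding RNA gene 4833438C02Rik overlap Nfkb2. A weak pair 2.4 to 2.5 kb past that 3′ end had 8 NFKB2 fragments, the lowest number listed for NFKB2 at its lowest background, and 12 ELF3 fragments. The RefSeq gene is 2.41 kb longer than that of the rule, but only 7664 bp of it follow its most upstream promoter entry. The remaining 2 ELF3 regions, with 14 and 12 fragments, had no NFKB2 region. No region of either factor lay in the 20 kb before the Nfkb2 start.

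Relb, whose product pairs with p52, had the next highest NFKB2 signal at its 5′ end, and there the signals of the factors could not be told apart. The NFKB2 region at chr7:19362348-19363825 held 83 fragments (66.1 to 103), a number matched or passed by 126 of the 14217 NFKB2 regions. The ELF3 region at chr7:19362256-19363546 held 99 (80.5 to 121), matched or passed by 1.38% of the ELF3 list. The ratio was 0.803 (0.592 to 1.09), an interval that includes equal signal. The summits lay 65 bp apart, about 1.2 to 1.3 kb inside the gene. The local background there was raised in both lists, to 1.62 times the lowest level for ELF3 and 1.53 times for NFKB2, and its part in the counts was not tested.

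The second NFKB2 region of the Relb window, at chr7:19338401-19338623, was narrow, at 223 bp. It held 19 fragments and lay about 1.5 kb past the 3′ end, towards the neighbouring gene Clasrp. The ELF3 region beneath it held 10 fragments, so NFKB2 was nominally the higher, with a ratio of 1.82 (0.805 to 4.38) that includes equal signal. The other 4 ELF3 regions, with 8, 10, 17 and 22 fragments, had no NFKB2 region. The strongest of them, at chr7:19329140-19329305, measured 166 bp, and 97.8% of all ELF3 regions were as wide or wider.

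Rel, the gene of the c-Rel subunit, had a single region per factor in its 75 kb window. The NFKB2 region at chr11:23720592-23721642 held 49 fragments (36.3 to 64.8), matched or passed by 2.48% of the NFKB2 list. The ELF3 region at chr11:23719792-23721629 held 26 (17.0 to 38.1), near the middle of its list, in which 41.3% of regions held as many or more. The ratio of 1.80 (1.1 to 3.02) put NFKB2 above ELF3, with summits 35 bp apart within 0.4 kb of the gene's 5′ end. At 1838 bp this was the widest ELF3 region of the 5 windows, and 98.8% of the NFKB2 region lay inside it. No other region of either factor lay in the window, in the gene or on either side.

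The 250 bases before the Rel start (minus strand, GRCm38.p6 chr11:23770970-23771219) are shown for comparison with Nfkb2, with κB matches in capitals.
Rel start: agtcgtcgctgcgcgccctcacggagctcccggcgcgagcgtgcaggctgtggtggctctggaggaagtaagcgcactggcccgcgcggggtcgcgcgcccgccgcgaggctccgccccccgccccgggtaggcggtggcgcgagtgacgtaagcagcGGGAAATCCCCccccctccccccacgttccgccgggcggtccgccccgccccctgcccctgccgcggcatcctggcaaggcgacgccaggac
The capital stretch begins 92 bases before the start and holds GGGAAATCCC and, shifted by 1 base, GGAAATCCCC. As in Nfkb2, the stretch runs into a row of C. The Rela entry had no κB match, which says only that these letters are not in that window. Of the 3 genes with an entry, those with a κB match, Nfkb2 and Rel, were also those whose 5′ end had NFKB2 above ELF3. With 3 genes this is a description only.

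Rela, the gene of the p65 subunit, carried its stronger NFKB2 signal at the 3′ end, not at the start. The region at chr19:5698655-5699447 held 60 NFKB2 fragments (45.8 to 77.2), matched or passed by 1.66% of the NFKB2 list. The ELF3 region there, at chr19:5698302-5699121, held 32 (21.9 to 45.2), and the ratio was 1.80 (1.15 to 2.85). The summits lay 1 bp apart, about 0.1 kb before the 3′ end that the rule gives. The RefSeq length of Rela is 10693 bp beside 12 kb in the rule, so they may lie inside the gene or just past it. The next gene in the order is Sipa1, followed by Pcnx3. At the 5′ end the NFKB2 region at chr19:5686719-5687800 held 18 fragments (10.7 to 28.4) and the ELF3 region at chr19:5686598-5687772 held 28 (18.6 to 40.5). There the ratio was 0.616 (0.321 to 1.15), and both summits fell on the same base, 5687410.

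The Rela window also held the only NFKB2 region of the 5 windows without an ELF3 region. It lay at chr19:5713443-5713896, 14.8 kb past the 3′ end, with 17 fragments (9.90 to 27.2) over a background 1.53 times the lowest level. An ELF3 region with 13 fragments, 12.8 kb before the Rela start, had no NFKB2 region.

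Nfkb1, which encodes p105 and p50, held 9 ELF3 regions in the longest window. Its ELF3 regions numbered 60.8 per Mb, beside 102 for Nfkb2, 93.8 for Relb, 57.7 for Rela and 13.3 for Rel. Its 4 NFKB2 regions held 18, 18, 16 and 9 fragments, near or below the median of 16 over the NFKB2 list, and each had fewer than its ELF3 partner. Its strongest ELF3 region, at chr3:135334374-135334984, held 89 fragments (71.5 to 110), matched or passed by 2.21% of the ELF3 list. It lay deep in the gene, 63.3 kb from the 5′ end. NFKB2 held 18 fragments there (chr3:135334446-135334991), a ratio of 0.194 (0.110 to 0.324), and 91.2% of all shared pairs had the same or a higher ratio. The summits lay 87 bp apart.

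Nearer the Nfkb1 start, at 22.5 kb, the ELF3 region chr3:135375163-135376977 was 1815 bp wide, the widest of this gene, and held 41 fragments beside 18 for NFKB2 (chr3:135375388-135376849; ratio 0.420, 0.227 to 0.748). At 17.4 kb the ELF3 region chr3:135380463-135381456 held 27 fragments, and NFKB2 16 at chr3:135380555-135380961 (ratio 0.567, 0.286 to 1.09). The 5′ end had the fewest fragments of the 5 genes in both libraries, but in neither was it separated from the next gene beyond counting error. There ELF3 held 13 fragments (6.92 to 22.2) at chr3:135396150-135397811 and NFKB2 9 (4.12 to 17.1) at chr3:135396633-135397716. Their summits were 472 bp apart, the widest spacing of the 12 pairs, and the ratio of 0.663 (0.250 to 1.68) could not be told from equal signal. Of the NFKB2 list, 98.4% held as many fragments as this NFKB2 region or more.

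The remaining 5 ELF3 regions of the Nfkb1 window had no NFKB2 region and held 7 to 40 fragments. The strongest of them, at chr3:135364410-135364806, lay over a local background 2.43 times the lowest level.

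By count, the 5′ ends of the genes stood in a different order for the 2 factors. The genes that changed places, Nfkb2 with Relb and Rel with Rela, were each told apart in only 1 of the 2 libraries. For NFKB2 the order was Nfkb2 with 99 fragments, Relb with 83, Rel with 49, Rela with 18 and Nfkb1 with 9. Nfkb2 and Relb could not be told apart (quotient 1.19, 0.882 to 1.62). Relb exceeded Rel (1.69, 1.18 to 2.46) and Rel exceeded Rela (2.72, 1.56 to 4.97), while Rela and Nfkb1 were not separated (2.0, 0.853 to 5.05). For ELF3 the order was Relb with 99, Nfkb2 with 37, Rela with 28, Rel with 26 and Nfkb1 with 13. Here Relb exceeded Nfkb2 (2.68, 1.82 to 4.02), and no later neighbour in the order differed beyond counting error. These quotients are within 1 library, and their intervals make no allowance for the number of neighbours compared.

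**Figure D2:**
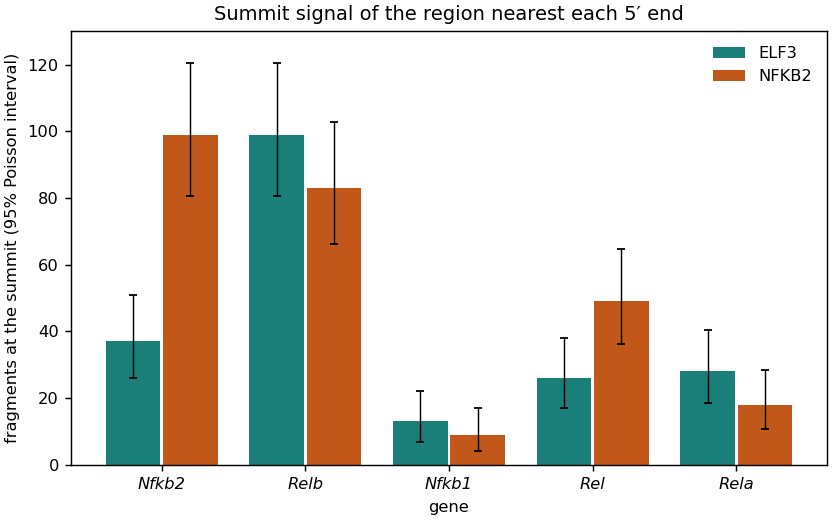
Fragments at the summit of the region nearest the 5′ end of each gene, for ELF3 (green) and NFKB2 (orange), with exact 95% Poisson intervals as error bars and no adjustment for depth. NFKB2 stood above ELF3 at Nfkb2 (99 beside 37) and Rel (49 beside 26), and the ELF3 bar was tallest at Relb (99).

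Only regions listed for both factors enter a pair. Across the 12 shared pairs the NFKB2 over ELF3 ratio ran from 0.194 to 2.56. Their median was 0.733, beside 0.388 (quartiles 0.272 and 0.561) over all 13769 shared pairs. The shared ELF3 regions of the windows held a median of 27.5 fragments, beside 43 over all shared ELF3 regions. All 13 NFKB2 regions of the windows held a median of 18, beside 16 over the NFKB2 list. The ratio is the quotient of such counts, so lower ELF3 counts raise it as well as higher NFKB2 counts do. NFKB2 had the higher depth-adjusted signal in 5 of the 12 pairs, against 5.99% of all pairs: the 5′ ends of Nfkb2 and Rel, the 3′ end of Rela, the region past the end of Relb and the one past the end of Nfkb2. In the first 3 the interval excluded equal signal. Among pairs with 20 or more NFKB2 fragments the count was 4 of 5, against 10.3% of all such pairs. That limit is set on the numerator of the ratio, so it favours ratios above 1 in the windows and in the whole list. Nfkb1 had no pair with 20 or more NFKB2 fragments, and its ratios of 0.194 to 0.663 were all below 1.

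**Figure D3:**
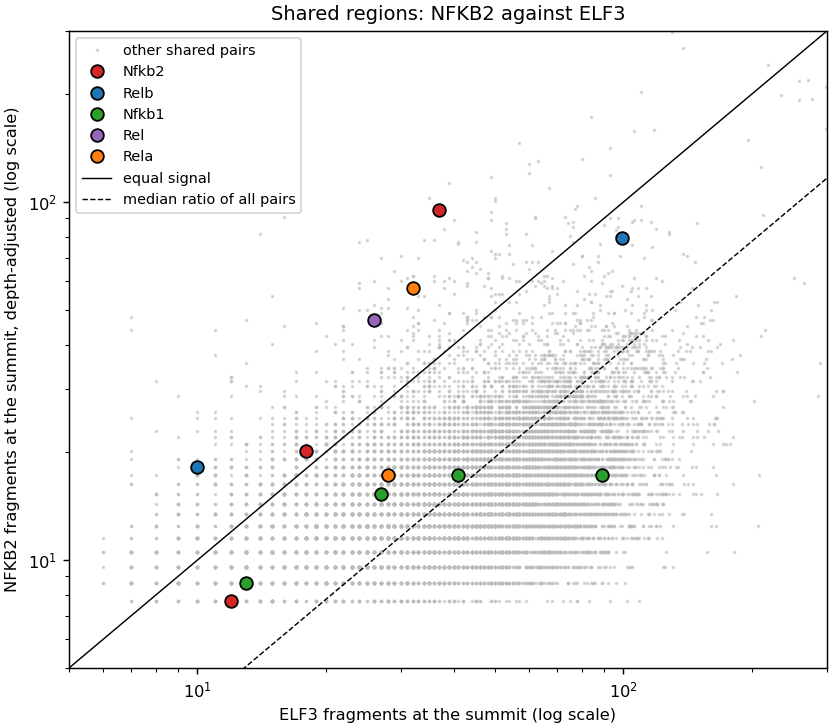
NFKB2 fragments, adjusted for depth, against ELF3 fragments at the summits of shared regions, both axes logarithmic; grey points are the other shared pairs of the whole lists, of which 79 lie beyond the axis limit of 300, and coloured points are the 12 pairs of the subunit genes. The strong pairs of Nfkb2, Rel and Rela lie above the line of equal signal and most grey points below it.

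**Figure D4:**
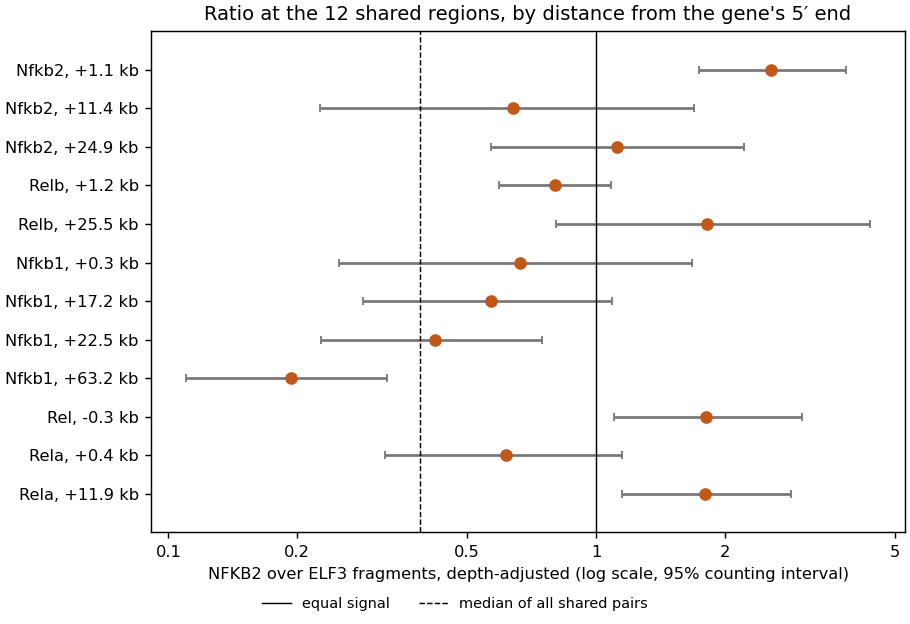
NFKB2 over ELF3 ratio at the 12 shared regions (points) with 95% counting intervals (bars) on a logarithmic x axis; labels on the y axis give the gene and the distance of the NFKB2 summit from its 5′ end. The intervals lie wholly above 1 at the Nfkb2 5′ end (2.56), the Rel 5′ end (1.80) and the Rela 3′ end (1.80), and wholly below 1 at 2 regions inside Nfkb1.

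The 12 shared ELF3 regions had a median width of 1233 bp (230 to 1838), beside 909 bp (quartiles 522 and 1547.5) over all shared ELF3 regions. All 5 ELF3 regions at 5′ ends were 1175 to 1838 bp wide, and 7 of the 24 ELF3 regions exceeded 1000 bp, beside 20.9% of the list. Of the 13 NFKB2 regions 6 exceeded 1000 bp, beside 11.2% of the list. Their median width was 937 bp against 329 bp over all NFKB2 regions. The 12 ELF3 regions without NFKB2 were mostly narrow and weak, with medians of 259 bp (163 to 701) and 12.5 fragments (7 to 40). Over all such ELF3 regions the medians were 345 bp and 19. Of the 12 shared NFKB2 regions 10 had an ELF3 summit within 100 bp, against 75.6% of all shared regions. The median spacing was 55.5 bp, beside 41 bp over the whole list.

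The windows were fixed limits, and regions just beyond them were left out. The nearest ELF3 regions outside lay 1.13 kb beyond the Nfkb1 window, with 18 fragments, and 1.37 kb beyond the Rela window, with 34. The nearest NFKB2 region outside lay 5.99 kb beyond the Nfkb2 window, with 15 fragments. The regions closest to an edge on the inside were an ELF3 region with 8 fragments in the Relb window, 3.34 kb from its edge, and the NFKB2 region past the end of Nfkb2, 3.49 kb from its edge.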

How the data were processed

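CUT&RUN region lists of 2 libraries were used, 1 per antibody. The authors called regions with MACS2, as the submitters' processing notes state, separately for each library as far as the labels say. Its version and settings, the aligner and the control file were not stated. The deposited fold is a ratio, the summit's signal over the local background. The deposited −log10 p and q are those of the summit, and the deposited score is −log10 q times 10 with its decimals dropped. The summit lists repeat the positions and −log10 q.

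Fragments were solved from fold and −log10 p under the caller's Poisson model, with −log10 p matched within 0.01 (scaled up above 100), for 100% of regions. The lowest local background was 1.22 and 1.36 fragments in ELF3 and NFKB2. Depth per kb used fragment lengths of 121 and 129 bp, read from the steps of the background. The functions were tested on simulated lists.

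The members and lists were chosen with earlier results of these data known. By the naming rule, every NFKB2 region is named and, per gene, the ELF3 region of most fragments, the one nearest the 5′ end and the widest; any further region was picked once its values were known. An overlap of at least 1 bp made regions shared, and each shared NFKB2 region was paired with the overlapping ELF3 region of most fragments. The strand of Rel, Rela and Nfkb2 came from the RefSeq promoter table, that of Nfkb1 and Relb from general knowledge. Neighbouring genes were read from a RefSeq gene table of GRCm38.p6, by order only. The κB consensus was searched on both strands of each 300-base promoter entry. The planned counts over other pathway genes and the genes of most like pattern need a GRCm39 annotation and were not run. Python 3.11.15, NumPy 2.4.6, SciPy 1.17.1 and pandas 2.3.3 were used.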

Additional observations from a re-analysis of the deposited data

How the results depend on the processing

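No paired analysis was possible because each antibody has 1 library and no test was run. With −log10 q of 10 or more, 11 of the 24 ELF3 regions were left, of which 72.7% were shared instead of 50%. Of ELF3 regions with 20 or more fragments, a setting chosen after seeing the data, 80.0% were shared. With windows narrowed by 20 kb on each side 15 ELF3 regions were left. The NFKB2 share on ELF3, 92.3%, was 100% with windows narrowed by 10 or 20 kb, since the Rela region without ELF3 then falls outside. With the ELF3 list cut to the length of the NFKB2 list, only 3 ELF3 regions were left in the windows; all were shared (100%), and they took in 23.1% of the NFKB2 regions. These settings shorten the lists or the windows by construction. The other 36 alternative values of these totals and shares, of cover, of the ratios and of summit spacing stayed within their limits. The count of 5 pairs with NFKB2 above ELF3 was the same under all 5 alternatives run for it. These were no depth division, deposited folds, pairing by nearest summit, lowest background only, and depth from that background (a ratio of 1.11, chosen after seeing the data). Most of them could hardly change it. Pairing by nearest summit gave the same pairs. The depth settings scale all ratios alike, and the ratios nearest 1 were 0.803 and 1.12. With lowest background only, 10 pairs were left, and the median ratio was 0.890 instead of 0.733. Of the 145 alternative values for single genes and regions 10 moved and none reversed. Weak binding is not listed: the fewest fragments at the lowest background were 6 for ELF3 and 8 for NFKB2, so a gene without a listed region may still be bound.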
